A study of Bos taurus with 16 samples.

Results

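WDR86, SHISA3, CD101 and LOC104972118 were higher in sirloin muscle than in round muscle of neonatal calves, and ALDH1A2 and LOC101907241 were higher in round muscle. They are 6 of the 34109 genes listed in the count tables, found by their NCBI gene IDs. LOC104972118 and LOC101907241 are annotated as long noncoding RNAs, whereas the other 4 genes code for proteins. The genes were chosen by the difference of their counts between round and sirloin muscle in these same libraries, so their levels in the muscles are given as a description with no test. The maternal diet played no part in that choice and was tested within each muscle.

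RNA was sequenced from round and sirloin muscle of 8 male calves of the Korean Hanwoo breed (Bos taurus), taken at birth before the calves had drunk colostrum. The 4 control calves came from cows fed 100% of their requirement and the 4 treated calves from cows fed 150% of it in mid to late pregnancy. The labels name no other treatment. Each calf gave 1 library from each muscle, which makes 4 groups of 4 libraries. Round and sirloin libraries of the same diet and number (control 1 to 4, treated 1 to 4) were taken as the muscles of 1 calf. The libraries held between 44473011 and 72446933 counts, and marker genes of muscle fibres summed to between 68310 and 127100 TPM in each, TPM being the authors' expression unit scaled for gene length and library size.

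A pair of libraries stood apart from the rest. Round control 2 had the highest summed level of fibroblast markers, at 2205 TPM against at most 512 TPM in the other round libraries, and of tendon markers, at 169 TPM. Sirloin treated 4 had 3777 TPM of adipocyte markers, against at most 4.84 TPM in the other sirloin libraries and 15.0 TPM in round muscle. In bulk tissue, fewer cells of a type and less RNA per cell cannot be told apart. Results were also computed without control calf 2 and treated calf 4, a choice made after seeing the marker sums.

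ALDH1A2 is the retinaldehyde dehydrogenase that makes retinoic acid, a signal derived from vitamin A that acts through the RAR and RXR nuclear receptors and helps to pattern the trunk and limbs of the embryo. SHISA3 belongs to the SHISA family of adaptors, some members of which hold immature Frizzled and FGF receptors in the endoplasmic reticulum and thereby dampen Wnt and FGF signalling. CD101 is a transmembrane protein of the EWI immunoglobulin family, best known from myeloid cells and T cells. WDR86 codes for a WD40 repeat protein whose function is little known. LOC101907241 lies in the HOXC cluster, one of the clusters of homeobox genes that give cells their position along the body axis.

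Of the 22877 genes with at least 1 count in any library, edgeR called 14 between the muscles at an adjusted p of 0.05 (0.0612%), 8 higher in sirloin and 6 higher in round muscle, and 1447 genes (6.33%) had an unadjusted p under 0.05. It called 109 with the calf as a block. All 6 genes described here are among the 14 by the way they were chosen, and nothing is read from that. The median absolute difference between the muscles of a calf was 0.17 on the log2 scale over all genes tested, from CPM, the counts scaled to the size of each library, with a prior count of 2. The values of the 8 round libraries did not overlap those of the 8 sirloin libraries for 19 genes (0.0831%), among them 5 of the 6. CD101 is the exception.

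**Figure D1:**
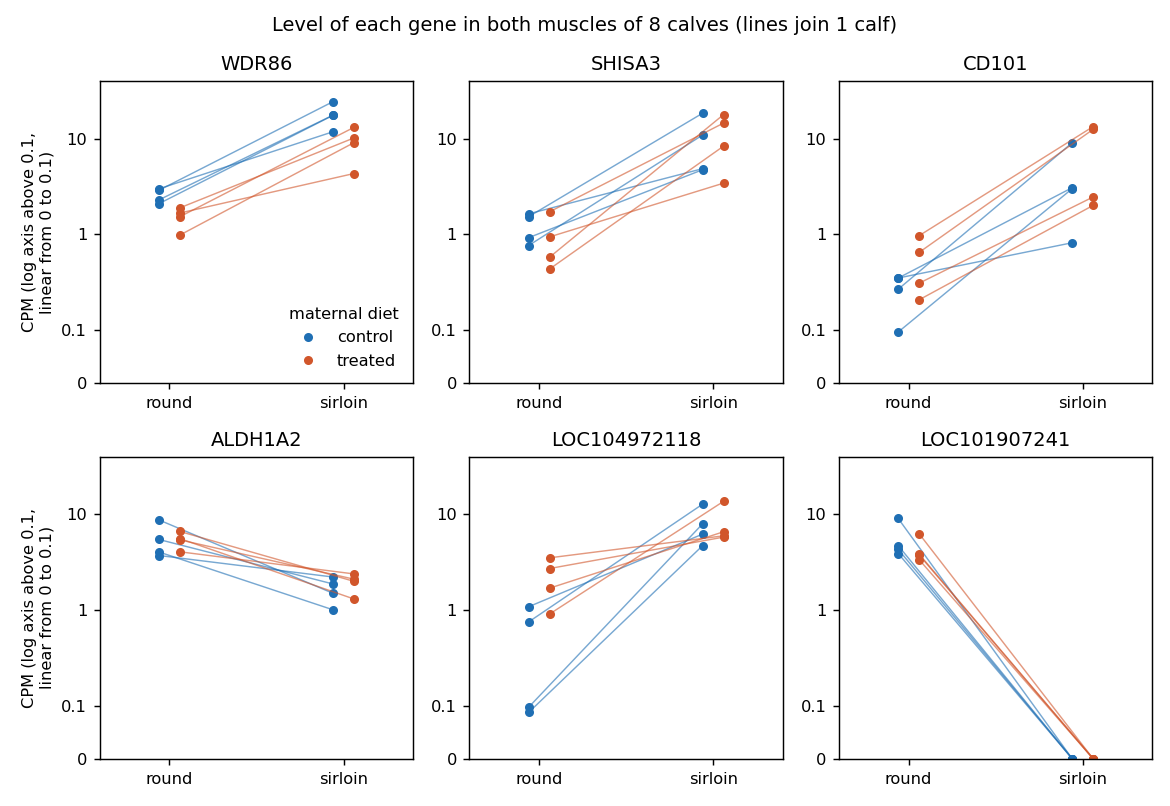
Level of each gene in CPM (log axis above 0.1, linear from 0 to 0.1) in round and sirloin muscle of 8 calves, with 1 point per library, a line joining the muscles of a calf, and colour for the maternal diet. Every line rises from round to sirloin muscle for WDR86, SHISA3, CD101 and LOC104972118, and every line falls for ALDH1A2 and LOC101907241, which reaches 0 in all 8 sirloin libraries.

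WDR86 was 6.62-fold higher in sirloin than in round muscle by the ratio of the mean levels, which were 13.5 and 2.04 CPM. In round muscle it stood at 2.09, 2.99, 2.89 and 2.29 CPM in control calves 1 to 4 and at 1.53, 1.89, 0.983 and 1.67 CPM in treated calves 1 to 4. In sirloin muscle the same calves had 17.6, 11.8, 24.4 and 17.6 CPM in the control group and 13.1, 10.2, 9.09 and 4.32 CPM in the treated group. The lowest sirloin library, treated 4, was still above the highest round library. Within a calf the difference was 2.62 ± 0.66 on the log2 scale (SD, n = 8 calves), from 1.35 in treated calf 4 to 3.16 in treated calf 3. The lowest difference therefore belongs to the calf whose sirloin library held the adipocyte markers, and without both calves that stood apart the mean was 2.94. In RefSeq's annotation of the ARS-UCD2.0 assembly WDR86 overlaps NUB1, a gene for a regulator of NEDD8 conjugation. NUB1 was at 15.9 TPM in round and 21.2 TPM in sirloin muscle, a log2 difference of 0.30 ± 0.16 (SE, adjusted p = 0.821). The long noncoding RNA LOC132345154 also overlaps WDR86 and has no entry among the counts. Whether the counting used the strand was not settled by the sources. Reads of the overlap with NUB1 may therefore be assigned to either gene, and reads of LOC132345154 may be counted under WDR86.

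SHISA3 was low in round muscle and varied several-fold among sirloin libraries. Its round levels were 1.64, 0.764, 0.923 and 1.53 CPM in control calves 1 to 4 and 1.72, 0.576, 0.434 and 0.940 CPM in treated calves 1 to 4. Its sirloin levels were 4.86, 10.9, 4.74 and 18.5 CPM in the control calves and 14.6, 17.9, 8.36 and 3.43 CPM in the treated calves. Sirloin treated 4 was again the lowest sirloin library, and it lay above every round library. The mean levels of 10.4 and 1.07 CPM differed 9.77-fold, and within a calf the difference was 3.14 ± 1.17 on the log2 scale (SD, n = 8 calves). It ranged from 1.55 in control calf 1 to 4.87 in treated calf 2, so the calves differed more from each other for SHISA3 than for WDR86. ATP8A1, a gene for a phospholipid flippase and the nearest annotated gene on one side, had 10.9 TPM in round and 13.2 TPM in sirloin muscle (adjusted p = 1).

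CD101 had the lowest level per length of the 6 genes in round muscle and was higher in sirloin muscle in 8 of 8 calves. The round libraries held only 4, 27, 11 and 16 counts of it in control calves 1 to 4 and 13, 15, 67 and 31 counts in treated calves 1 to 4, which is 0.0963 to 0.969 CPM. Sirloin levels were 3.01, 0.818, 9.08 and 3.08 CPM in the control calves and 2.01, 2.46, 13.4 and 12.5 CPM in the treated calves. Sirloin control 2 lay below the highest round library, treated 3, so the muscles overlapped across calves although sirloin was higher in each calf. The difference within a calf was 3.44 ± 1.19 on the log2 scale (SD, n = 8 calves), with a range of 1.15 to 4.91, and the mean levels of 5.80 and 0.399 CPM differed 14.5-fold. On log2 TPM with a pseudocount of 0.1, which shrinks differences between low values, the mean difference was 2.81. The lowest difference came from control calf 2, the calf with high fibroblast and tendon markers in round muscle, and without both calves that stood apart the mean was 3.69. With so few counts in round muscle, a fold for a single calf has a wide counting error.

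Markers of the blood cells in which CD101 is best known were read in both muscles. The 5 macrophage markers that matched the tables (CD68, CSF1R, CD163, MRC1 and CD14) summed to between 4.94 and 24.2 TPM in round and between 4.46 and 26.1 TPM in sirloin muscle. The highest CD101 libraries, sirloin treated 3, sirloin treated 4 and sirloin control 3, had macrophage sums of 4.46, 15.8 and 5.08 TPM, the first being the lowest of the sirloin libraries. The 6 T and NK cell markers summed to at most 3.71 TPM in any library and the 4 dendritic cell markers to at most 6.61 TPM. The 2 neutrophil markers that matched, S100A8 and S100A9, summed to between 1.5 and 12.1 TPM in round and between 1.49 and 26.3 TPM in sirloin muscle, with 2.81, 22.9 and 3.31 TPM in those 3 libraries. CD101 itself was at 0.0191 to 4.86 TPM. None of the markers in these lists was at an adjusted p under 0.05 between the muscles by edgeR, with or without the calf as a block, and the part of these cells in the CD101 values was not tested.

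LOC104972118 was the most abundant of the 6 genes per length in sirloin muscle, and the one with the widest spread in round muscle. In round muscle it had 1.08, 0.751, 0.0971 and 0.0874 CPM in control calves 1 to 4, the last pair from 4 counts each. Treated calves 1 to 4 had 0.908, 2.72, 3.51 and 1.69 CPM. Sirloin levels were 6.22, 12.8, 7.99 and 4.72 CPM in the control calves and 13.7, 5.78, 5.97 and 6.58 CPM in the treated calves. Every sirloin library exceeded every round library, yet the round levels spanned 40.2-fold and the sirloin levels only 2.90-fold. The difference within a calf was 3.17 ± 1.90 on the log2 scale (SD, n = 8 calves), and it ran from 0.76 in treated calf 3 to 5.92 in control calf 3. Next to it in the annotation is CYCS, the gene for cytochrome c, which had 446 TPM in round and 407 TPM in sirloin muscle (log2 difference -0.23 ± 0.26, SE, adjusted p = 1).

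ALDH1A2 was 3.04-fold higher in round muscle by the ratio of the mean levels, which were 5.45 and 1.80 CPM. Round levels were 8.74, 4.04, 3.72 and 5.46 CPM in control calves 1 to 4 and 4.06, 5.41, 6.62 and 5.58 CPM in treated calves 1 to 4. Sirloin levels were 1.5, 1.01, 2.21 and 1.87 CPM in the control calves and 2.38, 2.1, 1.99 and 1.30 CPM in the treated calves. The muscles did not overlap, and round was higher in 8 of 8 calves. The sirloin minus round difference within a calf was -1.58 ± 0.62 on the log2 scale (SD, n = 8 calves), from -2.52 in control calf 1 to -0.74 in control calf 3. ALDH1A2 thus had the smallest difference of the 6 genes, and its levels varied the least within a muscle, with a coefficient of variation of 30.3% in round and 26.7% in sirloin muscle. The annotation places the snRNA gene LOC112448651, which had no counts, over ALDH1A2. AQP9, a gene for a water and glycerol channel on the other side, was at 0.0362 TPM in round and 0.0144 TPM in sirloin muscle.

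LOC101907241 was read in every round library and in no sirloin library. Round levels were 9.05, 3.90, 4.71 and 4.30 CPM in control calves 1 to 4 and 3.84, 3.77, 6.27 and 3.36 CPM in treated calves 1 to 4, from 161 to 434 counts a library. All 8 sirloin libraries had 0 counts of it among 452265243 in total. A count of 0 allows up to 3 counts, or 0.00653 CPM over the 8 sirloin libraries, a limit that covers counting error only. Against that floor LOC101907241 was at least 736-fold higher in round muscle, at 4.81 CPM over the pooled round libraries, and the same bound was 387-fold in the control and 351-fold in the treated calves.

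The genes next to LOC101907241 in the annotation were not all alike. It lies between HOXC11 and HOXC12, an interval from which the human genome transcribes the long noncoding RNA HOTAIR, although RefSeq gives the bovine gene no name and no sequences were compared here. HOXC11 had 2.65 TPM in round muscle and was at 0 in all sirloin libraries, and edgeR called it between the muscles (adjusted p = 5.85e-06). HOXC12 had no counts. HOXC10, on the HOXC11 side of the interval, had 21.8 TPM in round and 14.9 TPM in sirloin muscle (log2 difference -0.66 ± 0.44, SE, adjusted p = 0.917). The long noncoding RNA LOC101907194, between HOXC10 and HOXC11, had 4.50 and 1.31 TPM (-1.91 ± 0.47, SE, adjusted p = 0.288). These tests take no account of which libraries share a calf, and no result with the block is given for these genes. HOXC11 and LOC101907241 were thus the neighbouring pair with no signal in sirloin muscle, while HOXC10 and LOC101907194 were read in both muscles.

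On the TPM scale, which allows genes to be compared per length, the order of the means in sirloin muscle was LOC104972118 (23.1 ± 10.3 TPM), SHISA3 (10.6 ± 6.45), WDR86 (9.69 ± 4.11), CD101 (1.93 ± 1.75), ALDH1A2 (0.877 ± 0.261) and LOC101907241 at 0 (all SD, n = 8). The first 3 did not differ from their neighbours beyond their spread, as the ranges of mean ± SD overlapped, nor did CD101 and ALDH1A2, and the step from WDR86 down to CD101 was larger than the spread. In round muscle the order was LOC104972118 (3.82 ± 3.57 TPM), LOC101907241 (3.25 ± 1.08), ALDH1A2 (2.49 ± 0.669), WDR86 (1.30 ± 0.439), SHISA3 (0.968 ± 0.415) and CD101 (0.117 ± 0.0869). There the first 3 were not separated by their spread, nor were WDR86 and SHISA3, and the wide spread of LOC104972118 also covered WDR86 and SHISA3. The mean of CD101 lay below all others by more than the spread. Single libraries overlapped, with LOC104972118 at 0.216 TPM in round control 4 and CD101 at 0.284 TPM in round treated 3. Apart from LOC104972118, which had the highest mean in both, the order of the means differed between the muscles. That follows in part from choosing genes that differ between the muscles in either direction.

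The patterns of the genes over the 16 libraries were compared by the root mean square difference of centred log2 CPM, as a description over libraries that include the muscle difference used in the choice. The measure grows with the spread of the gene itself, so distances from different genes are not on the same footing. A gene with no change would lie 1.45 from WDR86, 1.75 from SHISA3, 2.04 from CD101, 0.881 from ALDH1A2, 2.02 from LOC104972118 and 3.53 from LOC101907241. WDR86 and SHISA3 were the closest pair of the 6, at 0.893, and CD101 lay 1.49 from WDR86 and 1.71 from SHISA3. Among 16213 other genes the closest to WDR86 was FOXD1, a forkhead transcription factor gene, at 0.815, followed by the unnamed gene IDs 101902232 at 0.826 and 112446667 at 0.844. FOXD1 was also closest to CD101, at 1.11, ahead of MLXIPL, which codes for the glucose-responsive factor ChREBP, at 1.21 and LOC614741 at 1.26. The closest genes to SHISA3 were LOC104973108 at 0.919, gene ID 112446667 at 1.04 and FOXD1 at 1.09. FOXD1 itself was scarce, with a mean of 0.121 TPM in sirloin and 0.00766 TPM in round muscle, far below the levels of WDR86 and CD101.

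LOC101907241 was closest to HOXC11, at 0.790, followed by the hindlimb T-box gene TBX4 at 1.45 and by HOXA11 at 2.48. All 3 were listed at 0 TPM in every sirloin library. LOC104972118 was closest to ZNF385C, a zinc finger gene, at 1.09, with LOC112441637 at 1.31 and LOC407148 at 1.32. For ALDH1A2 the closest were the spindle gene ASPM at 0.589, HIGD1B at 0.592 and the potassium channel gene KCNQ5 at 0.608. These stand against 0.881 for a gene with no change. ASPM was scarce, with a mean of 0.043 TPM in round and 0.0236 TPM in sirloin muscle. KCNQ5 was at 6.80 TPM in round and 4.51 TPM in sirloin muscle. Its sirloin minus round difference within a calf was -0.68 ± 0.17 on the log2 scale (SD, n = 8 calves). By edgeR without the calf as a block it did not pass the test (adjusted p = 0.402). That test takes no account of which libraries share a calf, and no result with the block is given for KCNQ5.

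The maternal diet was compared within each muscle to ask whether it shifted these genes. In round muscle edgeR called 4 of 21677 genes tested at an adjusted p under 0.05 (0.0185%) and 956 genes at an unadjusted p under 0.05 (4.41%). Of the 6 genes, 0 passed the adjusted and 1, LOC104972118, the unadjusted threshold. In sirloin muscle it called 2 of 21776 genes (0.00918%), with 852 (3.91%) unadjusted. Of the 5 genes tested there, 0 passed the adjusted and 1, WDR86, the unadjusted threshold, and LOC101907241 could not be tested since all its counts were 0. DESeq2, limma-voom and the other alternatives also left none of the genes at an adjusted p under 0.05. The 2 muscles come from the same calves, so their diet comparisons are not independent of each other.

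**Figure D2:**
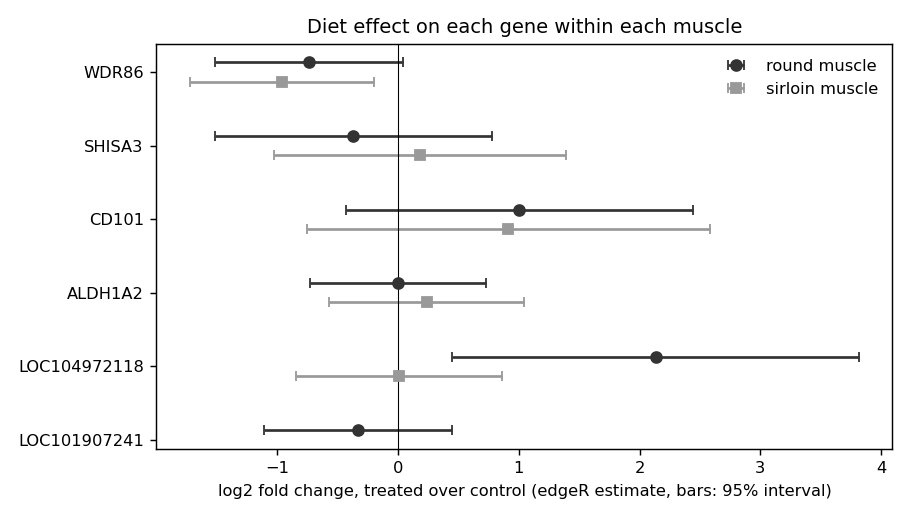
Log2 fold change of treated over control calves for each gene in round (dark circles) and sirloin muscle (grey squares), as estimated by edgeR, with bars for the 95% interval and 4 calves a group. The estimates for WDR86 lie below 0 in both muscles, those for LOC104972118 are 2.13 in round and 0.01 in sirloin muscle, and LOC101907241 has no sirloin value.

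WDR86 had lower mean levels in treated calves in both muscles, but neither difference passed the adjusted test. In round muscle the control mean was 2.57 ± 0.441 CPM and the treated mean 1.52 ± 0.388 CPM (SD, n = 4 each), and the highest treated library at 1.89 CPM lay below the lowest control library at 2.09 CPM. The log2 fold change was -0.74 ± 0.36 (SE), with a 95% interval of -1.52 to 0.05 and an adjusted p of 0.864 by edgeR. WDR86 was the 1 gene of the 6 with no overlap between the diets there, against 382 of all genes tested (1.76%). On the TPM scale its groups did overlap, with the lowest control library at 1.23 TPM and the highest treated library at 1.37 TPM. In sirloin muscle control calves had a mean of 17.9 ± 5.14 CPM, and treated calves one of 9.19 ± 3.67 CPM, with -0.96 ± 0.35 on the log2 scale (SE, 95% interval -1.72 to -0.20, unadjusted p = 0.0185, adjusted p = 0.876 by edgeR). The groups overlapped, since treated calf 1 exceeded control calf 2, as they did for the other 4 genes tested in sirloin muscle (0 of 5 without overlap, against 1.68% of all genes tested). Without control calf 3 the fold change was -0.76 (unadjusted p = 0.0632), and without both calves that stood apart it was -0.86 (unadjusted p = 0.00792, adjusted p = 0.852).

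LOC104972118 had the largest diet difference of the 6 genes, in round muscle. Control calves had a mean of 0.505 ± 0.495 CPM, and treated calves one of 2.21 ± 1.14 CPM (SD, n = 4 each), a 4.39-fold difference and 2.13 ± 0.77 on the log2 scale (SE, 95% interval 0.45 to 3.82). The unadjusted p was 0.0172 and the adjusted p 0.864 by edgeR, with adjusted values of 0.416 to 1 over all alternatives. Treated calf 1, at 0.908 CPM, lay below control calf 1, at 1.08 CPM, so the groups overlapped, and control calves 3 and 4 with 4 counts each lay far below the other libraries. In sirloin muscle the corresponding means were 7.94 ± 3.51 and 8.01 ± 3.81 CPM, a log2 difference of 0.01 ± 0.39 (SE, 95% interval -0.84 to 0.86, adjusted p = 1). Within a calf, sirloin exceeded round by 4.43 ± 1.51 on the log2 scale in the control and by 1.91 ± 1.39 in the treated calves (SD, n = 4 each).

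The difference between the diet effects of the muscles was tested over all 16 libraries. By edgeR 0 of 22877 genes passed an adjusted p of 0.05 (0%), as by DESeq2 and limma-voom, while 637 genes (2.78%) had an unadjusted p under 0.05. With the calf as a block 1 gene passed, which is none of the 6. LOC104972118 was the 1 of 5 genes tested with an unadjusted p under the threshold. Its effect in sirloin muscle was lower than that in round muscle by -2.1 ± 0.88 on the log2 scale (SE, unadjusted p = 0.028, adjusted p = 1), and without both calves that stood apart the difference was -2.08 (unadjusted p = 0.0635). For WDR86, SHISA3, CD101 and ALDH1A2 the differences lay between -0.20 and 0.58, with unadjusted p of 0.464 to 0.951 by edgeR.

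The other genes gave no diet call and had wide intervals. The round level of CD101 was 0.266 ± 0.119 CPM for control and 0.533 ± 0.346 CPM for treated calves (log2 fold change 1.01, 95% interval -0.43 to 2.44), and its sirloin level 4.00 ± 3.55 and 7.60 ± 6.21 CPM (0.91, -0.75 to 2.58). The CD101 values rested on single calves, since the sirloin fold change was 0.25 without both calves that stood apart and 0.48 to 1.72 with each calf left out, the highest without control calf 3 (unadjusted p = 0.0473, adjusted p = 0.939 by edgeR) and the lowest without treated calf 3. It was 0.57 without control calf 2 and 0.58 without treated calf 4, and the round value was 0.54 without treated calf 3. SHISA3 had -0.37 (95% interval -1.51 to 0.78) in round and 0.18 (-1.02 to 1.39) in sirloin muscle. ALDH1A2 had 0.00 (-0.73 to 0.73) in round, a value whose sign changed under other normalizations, and 0.24 (-0.57 to 1.05) in sirloin muscle. LOC101907241 had -0.33 (-1.10 to 0.45) in round muscle. All of these intervals include 0.

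ALDH1A2 was set beside 26 other genes that make, carry, bind or break down retinoids, a list chosen with these data known. All 26 had counts, and edgeR called none of them between the muscles, with 2 higher and 1 lower in sirloin at an unadjusted p under 0.05, against 6.33% of all genes tested, and a lowest adjusted p of 0.646. Their median log2 difference was -0.03, against 0.00 over all genes tested, and their median absolute difference within a calf was 0.23. DHRS9, CYP26A1, CYP26C1, CRABP1 and RBP2 had means of only 0.0016 to 0.081 CPM. Their SE between the muscles were 993 or more, so the test could not have called them. The prior count holds their differences within a calf near 0, and these enter that median. The most abundant genes of the list were FABP5, a carrier of retinoic acid and fatty acids (46.4 TPM over all libraries), and the receptor genes RXRA (38.6 TPM) and RXRB (28.5 TPM). RXRA was at 32.0 TPM in round and 45.2 TPM in sirloin muscle, higher in sirloin in 7 of 8 calves, but did not pass the test (adjusted p = 0.751). The sum over the list ran from 129 to 283 TPM in round and from 157 to 276 TPM in sirloin muscle, so the muscles overlapped throughout. ALDH1A1, another retinaldehyde dehydrogenase gene, was at 25.9 TPM in round and 14.2 TPM in sirloin muscle, a log2 difference of -0.67 ± 0.36 (SE, adjusted p = 0.826), and was higher in sirloin in 4 of 8 calves. Its highest round libraries were at 87.5 TPM (round treated 2) and 51.7 TPM, and its medians were 12.9 TPM in round and 11.3 TPM in sirloin muscle. ALDH1A3 was at 0.892 and 1.2 TPM (0.32 ± 0.59, SE, adjusted p = 1). Whether these differences differ from that of ALDH1A2 was not tested.

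**Figure D3:**
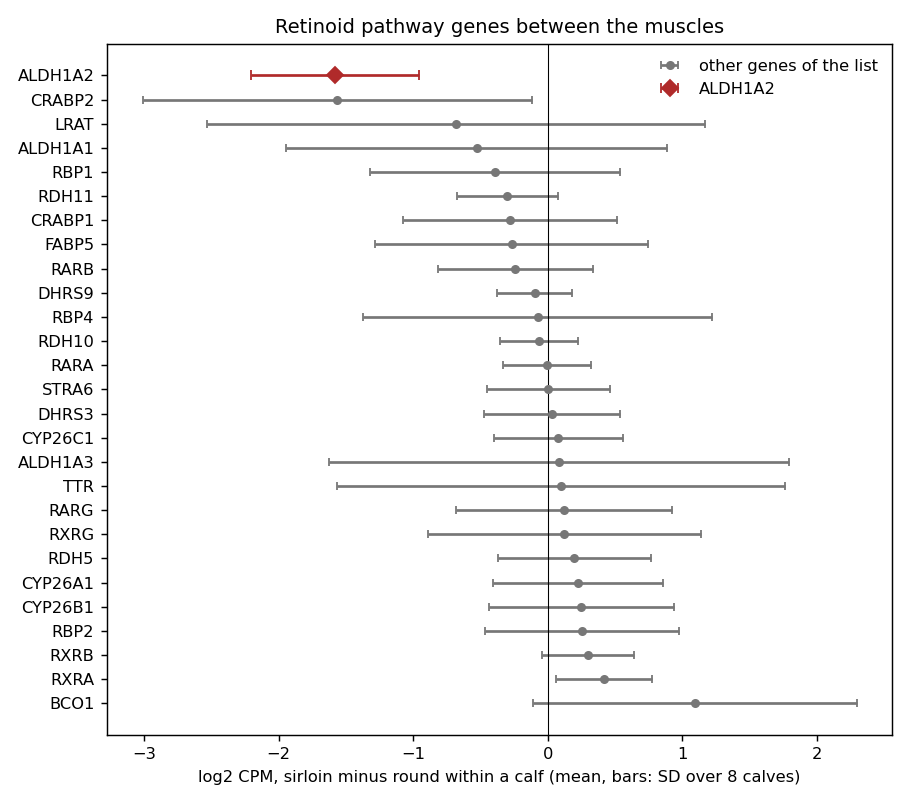
Sirloin minus round difference in log2 CPM within a calf for ALDH1A2 (red diamond) and the 26 other retinoid genes (grey), as the mean of 8 calves with bars for the SD. ALDH1A2 lies at -1.58 and CRABP2 at -1.56 with a much wider bar, BCO1 is highest at 1.09, and most of the others lie near 0. BCO1 was at 0 TPM in every round library and at most 0.132 TPM in sirloin muscle, so its value depends on the prior count.

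CRABP2, which delivers retinoic acid to its receptors and is named here after its values were seen, had a mean difference close to that of ALDH1A2, at -1.56 ± 1.45 (SD, n = 8 calves). It was at 24.4 TPM in round control 2 and at most 4.65 TPM in the other round libraries, with 0 to 1.44 TPM in sirloin muscle. Its test missed the threshold (adjusted p = 0.695, and 0.0944 with the calf as a block, by edgeR). The diet comparisons called 0 genes of the list in either muscle by edgeR, with 3 of 23 tested in round muscle (4.41% of all genes) and 1 of 25 in sirloin muscle (3.91% of all genes) at an unadjusted p under 0.05. The list's median log2 fold change was -0.21 in round muscle against 0.02 over all genes tested, and 0.07 in sirloin muscle against 0.03.

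For SHISA3 the list held 26 genes, the other SHISA family members and the Frizzled, LRP and FGF receptors, of which 24 had counts. Between the muscles edgeR called 0 of them, with 1 higher in sirloin at an unadjusted p under 0.05, against 6.33% of all genes tested, and a lowest adjusted p of 0.777. The median log2 difference was 0.16 against 0.00 over all genes tested. SHISA4 led the list with 81.2 TPM in round and 98.2 TPM in sirloin muscle, followed by FGFR1 (12.6 and 11.9 TPM) and SHISA5 (8.14 and 11.7 TPM). SHISA3, at 10.6 TPM in sirloin muscle, was thus of the level of FGFR1 and SHISA5 there and below all 3 in round muscle. FZD2, a Wnt receptor named after its values were seen, was higher in sirloin in 8 of 8 calves, by 0.77 ± 0.35 on the log2 scale (SD), without passing the test (adjusted p = 0.864, and 0.0688 with the calf as a block, by edgeR). For the diet edgeR called 0 genes of the list in either muscle, with 2 of 24 in each at an unadjusted p under 0.05, against 4.41% of all genes in round and 3.91% in sirloin muscle.

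CD101 was set beside the 3 other EWI family genes and 3 tetraspanin genes whose products bind that family. The list gave 0 calls in any comparison by edgeR, with 1 gene higher and 1 lower in sirloin of the 6 at an unadjusted p under 0.05, against 6.33% of all genes tested. CD81 (147 TPM over all libraries), CD82 (29.6 TPM) and CD9 (16.9 TPM) were the most abundant. PTGFRN, a family member that also lies next to CD101 in the annotation, was at 3.95 TPM in round and 6.83 TPM in sirloin muscle and was higher in sirloin in 7 of 8 calves, a log2 difference of 0.76 ± 0.34 (SE, adjusted p = 0.775, and 0.0956 with the calf as a block). TTF2, the neighbour on the other side, was at 1.02 and 1.27 TPM (adjusted p = 1). CD9 went the other way, at 23.1 TPM in round and 10.7 TPM in sirloin muscle (adjusted p = 0.608), with 77.4 TPM in round control 2 and at most 26.3 TPM in the other round libraries. By diet, 1 of the 6 genes was lower in treated round muscle at an unadjusted p under 0.05 (4.41% of all genes) and 0 in sirloin muscle (3.91%).

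**Figure D4:**
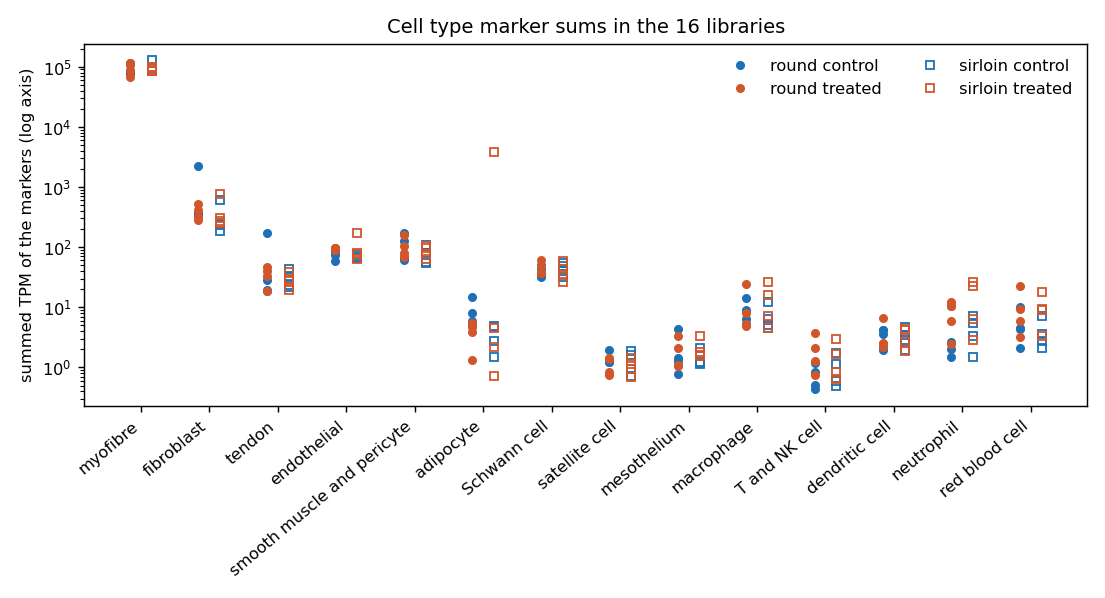
Summed TPM (log axis) of the marker genes of 14 cell types in the 16 libraries, with filled circles for round and open squares for sirloin muscle and colour for the maternal diet. The points of the muscles overlap for every cell type, and the adipocyte sum of sirloin treated 4 at 3777 TPM and the fibroblast sum of round control 2 at 2205 TPM lie far above the rest.

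Marker sums of 14 cell types overlapped between the 8 round and 8 sirloin libraries, and edgeR called 0 marker genes in any of the 4 comparisons without the block. Within calves some sums went mostly one way, with the fibroblast, smooth muscle and pericyte, and adipocyte sums each higher in round muscle in 7 of 8 calves. Among their genes, named after their values were seen, the fibroblast collagen COL1A1 differed by -1.07 ± 0.88 and the smooth muscle actin ACTA2 by -0.69 ± 0.40 on the log2 scale (sirloin minus round, SD, n = 8 calves), both higher in round in 8 of 8 calves. With the calf as a block ACTA2 passed the test between the muscles (adjusted p = 0.0438) and COL1A1 did not (adjusted p = 0.09). The muscle fibre gene DES was higher in sirloin in 8 of 8 calves, by 0.35 ± 0.26 (adjusted p = 0.277 with the block). COL1A1, ACTA2 and DES each went 1 way in 8 of 8 calves, as did the 6 genes, but with smaller mean differences than any of the 6. The part of these markers in the values of the 6 genes was not tested. The 5 adipocyte markers were all at an unadjusted p under 0.05 for the diet in sirloin muscle, where their sum was 0.730 to 4.84 TPM in every library but treated 4. The mesothelium markers summed to at most 4.30 TPM, with MSLN at 0 in round muscle. Sirloin treated 4 was the lowest sirloin library for WDR86 and SHISA3 and among the highest for CD101, and the part of its adipocyte markers in these values was not tested. Without both calves that stood apart the differences within a calf for WDR86, SHISA3, CD101, ALDH1A2 and LOC104972118 were 2.94, 3.25, 3.69, -1.44 and 3.23 on the log2 scale.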

How the data were processed

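The authors deposited whole-number read counts per gene and TPM values for 16 libraries, in 1 table each per muscle. The paper's methods name a stranded kit that depletes rRNA and globin RNA, with HISAT2, Bowtie2 and StringTie, whereas the labels and the submitters' processing notes name poly(A) selection, STAR and featureCounts on ARS-UCD1.2, so the preparation, the counter and its strand setting were not settled. Deposited TPM summed to between 999756 and 1000000 per library, reaching 1000000 only in control calf 2, in both muscles, whose TPM may therefore have been made differently. CPM and tests use its counts. The authors' tables of fold changes and p-values were not used.

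The 6 genes, the gene lists and the naming rule were chosen with earlier results of these data known. Named were the 6 genes, list genes past an adjusted p of 0.05 and the 3 most abundant of each list, the 3 genes of the most similar pattern (mean CPM of at least 0.1), and the nearest annotated neighbours. Symbols and neighbours came from RefSeq (ARS-UCD2.0), with 30746 of 34109 IDs matched. Coordinates are not given because the builds differ, and a planned motif search in promoters was not run.

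Counts were tested with edgeR 4.0.16 (R 4.3.3) with TMM factors, glmQLFit and glmQLFTest, with two-sided p-values under Benjamini-Hochberg adjustment, on genes with at least 1 count. The diet was tested in each muscle by itself, and the muscles and the interaction over 4 groups. Unless a block is named, tests between the muscles, with their SE, take no account of which libraries share a calf. CPM are TMM-scaled, and log2 CPM used a prior count of 2. Fold ratios of 0 used a floor of 3 counts. The labels give round and sirloin libraries of a diet the same replicate and description numbers, which were taken to mark 1 calf. After group means were removed, muscles of 1 calf so paired correlated at 0.311 to 0.765 over 12315 genes and muscles of different calves at -0.524 to 0.456, so the ranges overlapped. Equal numbers across diets correlated at -0.28 to 0.29 and were not taken as pairs in the main tests. Alternatives were DESeq2 1.42.0, limma-voom 3.58.1, RLE and upper-quartile normalization, filterByExpr, 1 fit of both muscles, a block, log2 TPM (pseudocount 0.1), a prior count of 0.5 and leaving out calves. The block was the calf for the muscles and the interaction. For the diet within a muscle it was the replicate number, which joins different calves of the diets by their number alone. The tests were tested on simulated data with 200 changed genes.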

Additional observations from a re-analysis of the deposited data

Results flagged for a closer look

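The values of 3 single libraries lay far from the other libraries of their group, by a gap to the nearest value that exceeded Dixon's limit for 4 values, which chance passes in about 1 in 20 groups, and 22 groups were examined. LOC104972118 was at 13.7 CPM in sirloin treated 1, and the gap was 0.899 of the range, the other treated sirloin libraries being at 5.78, 5.97 and 6.58 CPM. LOC101907241 was at 9.05 CPM in round control 1, with a gap of 0.842 of the range. LOC101907241 was also at 6.27 CPM in round treated 3, with a gap of 0.837. None of these libraries was among those that stood apart by their marker genes, and all 3 values rest on 376 or more counts.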

How the results depend on the processing

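The number of genes called for the diet in round muscle was 4, and it was 46 with DESeq2, 1 with limma-voom, 2 with the replicate block, 0 without both calves that stood apart (chosen after seeing the data, 1609 genes at an unadjusted p under 0.05) and 0 to 3 when each calf was left out in turn. In sirloin muscle it was 2, and 13 with DESeq2, 0 with limma-voom, 0 with the replicate block, 0 without both calves and 0 to 1 with a calf left out (682, 463 and 947 genes unadjusted for the first 3 of these zeros). With the calf as a block, 1 gene was called for the difference between the diet effects, and 109 genes in place of 14 between the muscles, where DESeq2 called 83 and leaving out a calf gave 13 to 19. Of the list and marker genes, ACTA2 alone passed with the block. Neither the replicate block for the diet within a muscle nor the calf block for the difference between the diet effects changed a call of the 6 genes. The replicate block joined different calves by their number alone, so it is a weak check on the diet. The log2 difference of LOC101907241 within a calf moved from -7.03 to -5.01 on log2 TPM and -9.02 with a prior count of 0.5, since its sirloin counts are 0. No diet value of the 6 genes reached an adjusted p under 0.05. Some unadjusted p lay on both sides of 0.05 over edgeR, DESeq2 and limma-voom settings. For WDR86 in round muscle it was 0.0625 by edgeR, 0.0258 by DESeq2 and 0.145 by edgeR without treated calf 3. The ranges were 0.00773 to 0.0632 for WDR86 and 0.0473 to 0.74 for CD101 in sirloin muscle. For LOC104972118 the difference between the diet effects had 0.00781 to 0.0987. Diet values near 0 changed sign. ALDH1A2 in round muscle was -0.014 with DESeq2, -0.015 with RLE, -0.0095 with upper-quartile normalization, -0.019 with filterByExpr, -0.018 in a single fit, -0.17 without both calves and -0.15 to 0.32 with a calf left out. LOC104972118 in sirloin muscle was -0.053 with limma-voom and -0.39 to 0.34 with a calf left out. The same ranges were -0.58 to 0.024 for LOC101907241 in round and -0.15 to 0.69 for SHISA3 in sirloin muscle. For the difference between the diet effects they were -0.44 to 0.094 for WDR86, -0.11 to 0.57 for ALDH1A2 and -0.59 to 0.71 for CD101, which was 0.17 with limma-voom and 0.16 with the calf as a block. The cause of these shifts was not tested. In round muscle CD101 had as few as 4 counts a library, which limits its fold.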
